A study of Mus musculus with 6 samples.

Results

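In hearts of angiotensin II-infused mice, 9 of 22556 genes were chosen as higher at 28 days than in all control and 7 day libraries. They were Myh7, Tuba8, Syt12, Rph3al, Nab2, Fam65b, Cdc14a, 1500009L16Rik and Gm12070. A gene was taken when its lower 28 day value was at least 1.5 times the highest of the 4 control and 7 day values and its mean at 28 days was at least 2 RPKM (reads per kilobase of transcript, scaled to the depth of the library). These criteria took 14 genes, of which Mir5107, Mir719, Retnlg, S100a8 and S100a9 were left out by symbol. Mir5107 and Mir719 met the fold criterion only because they were listed at 0 in the other 4 libraries and in 1 of the 28 day libraries. All 9 genes had a mean of at least 1 RPKM over the libraries, which was required for testing, and so were among the 11096 tested genes. Syt12 and Cdc14a reached that mean only through their 28 day values.

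Wild-type mice received Ang II (angiotensin II, a vessel-constricting peptide that loads the heart) from ALZET osmotic pumps under the skin at 1000 ng/kg/min. Whole hearts were profiled after 7 days, after 28 days and in a control group listed at 0 days, with 2 libraries in each of the 3 groups. The strain, the age and what the controls received are not given in the labels. Nothing in the labels ties each library to a separate mouse, so the p-values below reflect only how far these samples lay apart, and that distance may be technical.

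Pressure load makes cardiomyocytes grow and return in part to a fetal pattern of gene use. In the mouse ventricle the adult motor is alpha myosin heavy chain, encoded by Myh6, and the slower beta chain, encoded by Myh7, is the fetal form that returns under load. Loaded cardiomyocytes also build a denser network of microtubules, polymers of alpha and beta tubulin. Syt12, Rph3al, Nab2, Fam65b and Cdc14a serve vesicle release, transcription, the control of small GTPases and the cell cycle. Gm12070 is annotated as a pseudogene, and no function is given here for 1500009L16Rik.

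The 9 genes were chosen by their RPKM in all 6 libraries. Their heights at 28 days are therefore a description, and no test of them is given as support. The criteria set a fold over the 7 day values and do not require those to equal the controls. Both 7 day values lay above both controls in 6 of the 9 genes (Myh7, Tuba8, Syt12, Rph3al, 1500009L16Rik and Gm12070), against 48.6% of all tested genes, and nothing particular to these genes is read from it. After median ratio scaling, which moves the median change of all genes at 7 days from 0.14 to -0.01, it was 5 of 9 (without Tuba8) against 31.3%. In Nab2 and Cdc14a the 7 day and control values overlapped. In Fam65b both 7 day values lay below both controls, an order found in 16.1% of all tested genes. Of the 9 genes, 2 (Syt12 and 1500009L16Rik) passed as higher at 7 days in limma (p under 0.05 after Benjamini-Hochberg adjustment over the 11096 genes), against 13.2% of all tested genes. At 28 days against control 8 of 9 passed as higher, all but Cdc14a, where 2.87% of all tested genes were called higher. At 28 against 7 days 6 of 9 passed as higher, where 0.406% of all tested genes were. None of the 9 (0 of 9) passed as lower, against 2.27%, 1.54% and 4.26% of all tested genes in the 3 comparisons. The counts of 8 and 6 rest on the contrasts that chose the genes. The 7 day values also entered the choice, and Syt12 was tested only through its 28 day values. Nothing is read from the counts of 2, 8 and 6. Both 28 day values exceeded the other 4 in 5.05% of all tested genes. Without control replicate 1 the counts of 2, 8 and 6 became 0, 3 and 4, without control replicate 2 they became 1, 4 and 4, without 7 day replicate 1 they became 0, 6 and 2, and without 7 day replicate 2 they became 1, 6 and 0. With no filter they were 1, 4 and 3, against 6.62%, 0.256% and 0.142% of all tested genes, and Syt12 lost its 7 day call. After median ratio scaling 1 passed at 7 days, against 6.57% of all tested genes. Fits without a control or 7 day library also called a smaller share of all tested genes higher, in all 3 comparisons.

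**Figure D1:**
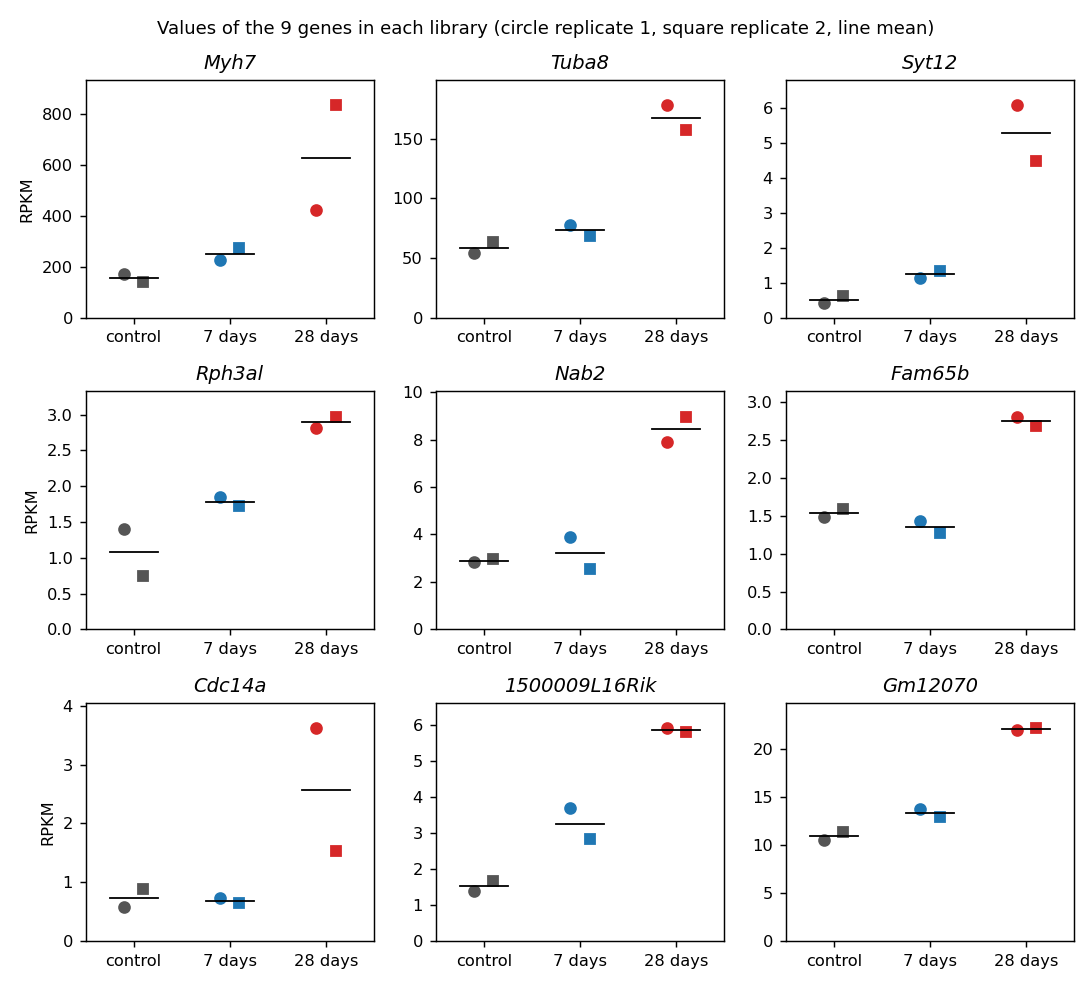
RPKM of each of the 9 genes (vertical axes, linear and starting at 0, each panel on its own scale) in the control, 7 day and 28 day groups. Circles are replicate 1, squares replicate 2 and lines group means. Both 28 day points lie above the other 4 in every panel, as the choice of genes requires, and the 28 day points of Myh7 and Cdc14a lie far apart.

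The promoters that held a match to a cardiac or growth-related motif are shown first, because they are what the sequence of these genes adds to the values below. RefSeq promoters (build GRCm38.p6) matched 7 of the 9 symbols, with 12 start sites, and the 250 bases before each start were searched on both strands. The MCAT element GGAATG, bound by TEAD factors, was present in 12.6% of all 32851 promoters and in 2 of these 12, 1 each of Myh7 and Cdc14a. The CArG box, bound by serum response factor, was present in 1.47% of all promoters and the NFAT core GGAAAA in 20.4%. Each was present in 1 of the 12, the same promoter of Fam65b. The SP/KLF box GGGCGG was present in 32.7% of all promoters and in 4 of the 12, 1 each of 1500009L16Rik, Fam65b, Nab2 and Rph3al. No promoter of these genes held the EGR site GCGNGGGCG (4.7% of all promoters), the GATA site AGATAA (9.99%), the AP-1 site TGANTCA (6.75%), the TATA box TATAAA (12.4%) or the MEF2 site (2.92%). The 3 promoters below are printed 5′ to 3′ on the strand of the gene and end at the base before the start site. Capitals mark the MCAT matches in Myh7 and Cdc14a and, in Fam65b, the NFAT match and the CArG box CCTTAAATGG, which overlap by 1 base.
Myh7, chr14:54994627-54994876, minus strand: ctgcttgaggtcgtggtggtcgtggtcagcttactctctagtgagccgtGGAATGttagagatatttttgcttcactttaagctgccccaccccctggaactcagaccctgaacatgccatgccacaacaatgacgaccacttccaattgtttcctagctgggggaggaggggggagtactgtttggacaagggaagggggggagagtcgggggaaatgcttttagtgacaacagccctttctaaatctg
Cdc14a, chr3:116428742-116428991, minus strand: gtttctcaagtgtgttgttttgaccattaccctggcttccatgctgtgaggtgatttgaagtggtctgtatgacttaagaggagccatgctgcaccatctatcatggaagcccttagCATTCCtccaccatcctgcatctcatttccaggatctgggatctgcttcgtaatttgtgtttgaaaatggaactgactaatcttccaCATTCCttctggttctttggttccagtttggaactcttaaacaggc
Fam65b, chr13:24581939-24582188, plus strand: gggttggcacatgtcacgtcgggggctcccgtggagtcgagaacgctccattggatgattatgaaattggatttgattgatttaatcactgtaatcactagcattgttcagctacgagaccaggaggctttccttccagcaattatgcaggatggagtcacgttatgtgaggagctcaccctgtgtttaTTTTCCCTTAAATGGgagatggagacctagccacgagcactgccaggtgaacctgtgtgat
The MCAT match of Myh7 began 201 bases before the start. Its other start site lies downstream, and the same match falls outside the 250 bases searched there. The MCAT matches of Cdc14a began 133 and 46 bases before the start and lay on the opposite strand. The CArG box of Fam65b began 56 bases before the start. These are matches of letters and show no binding.

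Myh7 was by far the most abundant of the 9 genes. It measured 173 and 141 RPKM in the controls, 227 and 272 at 7 days, and 421 and 834 at 28 days. The order was control, 7 days, 28 days with no overlap, and the 28 day libraries differed from each other by 1.98 times. The mean at 28 days, 628 ± 291 RPKM (SD, n = 2), was 4.0 times the control mean and 2.52 times the 7 day mean. On the scale of log2(RPKM + 0.5), which understates the change of low genes, Myh7 differed from control by 0.67 at 7 days and by 1.92 at 28 days (SE 0.29). Myh6, the adult chain, measured between 4163 and 5707 RPKM in the 6 libraries and did not pass at 28 days (0.28, limma adjusted p = 0.265). As a share of the summed RPKM of Myh7 and Myh6, Myh7 made up 4.0% and 3.1% in the controls, 4.67% and 5.74% at 7 days, and 6.88% and 15.1% at 28 days. The transcripts of the 2 genes were 91.7% identical over 5802 aligned bases, which leaves 484 differing positions by which reads can be assigned. In whole hearts, a change in the number of cells of a type and a change in RNA per cell cannot be told apart.

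Of the other myosin heavy chain genes, 7 were tested. At 28 days against control 0 of the 7 passed, where 2.87% of all tested genes were called higher and 1.54% lower. With so few tested, nothing is read from that. Myh9 and Myh10, the nonmuscle chains, passed as higher at 7 days, against 13.2% of all tested genes. Leaving out either control or 7 day replicate 2 ended both calls (limma adjusted p up to 0.109). Myh7b, a further muscle chain, was higher at 28 than at 7 days (0.52, limma adjusted p = 0.0494), and lost that call without any single library (0.0846 to 0.172).

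Tuba8 encodes an alpha tubulin found in heart, skeletal muscle and testis. It measured 53.9 and 63.4 RPKM in the controls, 77.7 and 68.6 at 7 days, and 178 and 157 at 28 days. The control and 7 day values lay close together and the 28 day values stood well above both. The 28 day mean was 2.86 times that of the controls and 2.29 times that of 7 days. Tuba4a, the most abundant alpha tubulin here, lay just outside the choice, at 1.466 times where 1.5 was needed. It measured 159 and 186 RPKM in the controls, 217 and 125 at 7 days, and 425 and 318 at 28 days, and did not pass at 28 days against control (1.09, limma adjusted p = 0.0625).

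Tuba8 made up a larger part of all alpha tubulin RPKM at 28 days. Its share was 15.5% and 16% in the controls, 14.1% and 15.9% at 7 days, and 21.6% and 23.3% at 28 days, above all other libraries. Tuba8 and Tuba4a together made up 61.1% and 62.9%, then 53.3% and 45.1%, then 73.2% and 70.7%. Of the 12 tubulin genes tested besides Tuba8, 9 passed as higher at 7 days and 6 at 28 days, 0 as lower. Of all tested genes 13.2% and 2.87% were called higher, and 2.27% and 1.54% lower. Median changes of the 12 were 0.76 and 0.66, where the medians of all tested genes were 0.14 and 0.01. The 6 were the alpha chain Tuba1c and the beta chains Tubb2a, Tubb2b, Tubb2c, Tubb5 and Tubb6, with changes from 0.65 to 1.22. Fewer of all tested genes passed at 28 days without a control library or with no filter. Without control replicate 1, 0 of the 6 passed at 28 days, without control replicate 2 and with no filter 3 tubulins did, and Tubb5 lost its call without any single library (limma adjusted p up to 0.273). At 28 against 7 days Tubb2c was higher (0.62, limma adjusted p = 0.0415; up to 0.188 without 1 library) and Tuba1a lower (-0.59, limma adjusted p = 0.0243; up to 0.125), the latter not passing after median ratio scaling.

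**Figure D2:**
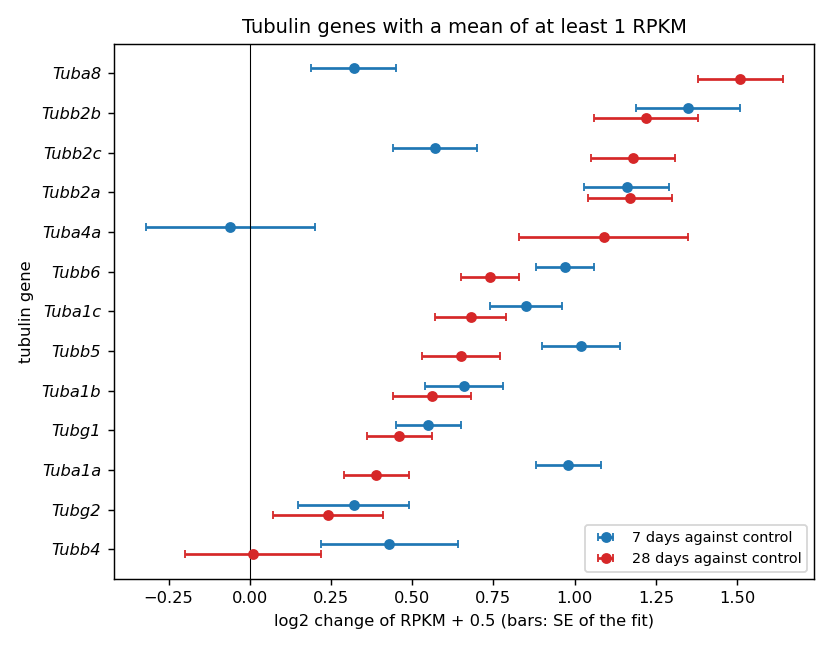
Log2 change of RPKM + 0.5 against control (horizontal axis) for the 13 tubulin genes tested, at 7 days in blue and at 28 days in red, with bars for the SE of the fit. Tuba8 and Tuba4a have small changes at 7 days (0.32 and -0.06) and large ones at 28 days (1.51 and 1.09), while Tuba1a has 0.98 at 7 days and 0.39 at 28 days.

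Syt12 had the largest ratio of the 9 genes. It encodes synaptotagmin 12, a vesicle membrane protein of a family best known for triggering secretion. It measured 0.41 and 0.621 RPKM in the controls, 1.14 and 1.35 at 7 days, and 6.07 and 4.47 at 28 days. The 3 groups were in order with no overlap, and the step from 7 to 28 days was larger than that from control to 7 days. The 28 day mean was 10.2 times the control mean and 4.23 times the 7 day mean, and the 7 day mean was 2.42 times the control mean. An estimated 18 to 261 reads lay behind these values, and counting error alone at the lowest was 23.6%. The log2 changes (SE 0.20) were 0.79 at 7 days and 2.5 at 28 days.

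Rph3al, also called Noc2, encodes a Rab effector that binds Rab3 and Rab27 on secretory vesicles. It measured 1.4 and 0.75 RPKM in the controls, 1.85 and 1.72 at 7 days, and 2.82 and 2.97 at 28 days. The groups were in order with no overlap, but the controls differed from each other by 1.87 times, and Rph3al was the gene nearest to the limit of the choice at 1.525 times. An estimated 21 to 75 reads lay behind a value.

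Of 16 other synaptotagmin genes 2 reached the level for testing, and only Syt11 passed, as higher at 7 days (0.69, limma adjusted p = 0.0335). Leaving out either control or 7 day replicate 2 ended that call (limma adjusted p up to 0.163). Of Rab3a, Rab3d and Rab27a 0 passed in any of the 3 comparisons. With so few tested, these counts lie near the shares of all tested genes called higher, 13.2% at 7 days and 2.87% at 28 days. Doc2g, a double C2 domain protein related to rabphilin, lay just outside the choice at 1.456 times. It measured 84.8 and 96.8 RPKM in the controls, 89.3 and 63.4 at 7 days, and 141 and 157 at 28 days. Doc2g passed as higher at 28 than at 7 days (0.98, limma adjusted p = 0.0266), and not without 7 day replicate 2 (0.109) or without either 28 day library. Schwann and neuronal markers summed to 7.18 and 7.24 RPKM in the controls, 6.84 and 6.89 at 7 days, and 6.54 and 7.33 at 28 days. Of the 3 tested 0 passed at 28 days, and Snap25 was listed at 0 throughout.

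Nab2 encodes a corepressor that binds the EGR transcription factors and is itself induced by them. It measured 2.82 and 2.98 RPKM in the controls, 3.89 and 2.54 at 7 days, and 7.91 and 8.96 at 28 days. The 7 day values lay on both sides of the controls, and the 28 day mean was 2.91 times the control mean and 2.62 times the 7 day mean. Nab1, the other corepressor of this kind, had another time course, with 2.59 and 3.1 RPKM in the controls, 5.59 and 5.9 at 7 days, and 4.51 and 4.77 at 28 days. Nab1 passed as higher at 7 days (0.90, limma adjusted p = 0.00566, lost without control replicate 1 or 7 day replicate 2, up to 0.0557) and at 28 days (0.62, limma adjusted p = 0.0423), the latter call being lost without any single library (up to 0.311). Egr1, an immediate early factor that NAB proteins restrain, measured 2.74 and 3.25 RPKM in the controls, 14.2 and 5.97 at 7 days, and 21.4 and 5.04 at 28 days. Its replicates differed widely and it did not pass at either time (limma adjusted p = 0.149 and 0.177). In the GRCm38 annotation Nab2 overlaps Stat6 on the opposite strand. Whether the counting used strand is not stated, so reads of overlapping genes cannot be told apart. Stat6 ranged from 14.1 to 18.6 RPKM over the libraries. Myh7, Syt12, Cdc14a and Tuba8 also overlap genes annotated on the opposite strand, among them Mhrt, a long noncoding RNA of the Myh7 locus, and those were not analysed here.

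Fam65b, now named Ripor2, encodes an inhibitor of the small GTPase RhoA that is found in muscle precursors and leukocytes. It measured 1.48 and 1.59 RPKM in the controls, 1.43 and 1.28 at 7 days, and 2.81 and 2.69 at 28 days. It was the one gene of the 9 with both 7 day values below both controls. Its 28 day mean was 1.79 times the control mean and 2.03 times the 7 day mean, the smallest rise from control among the 9. The related Fam65a did not pass in any comparison. Rhoa, which encodes its target, passed as higher at 7 days (0.43, limma adjusted p = 0.0343), and not without either control or either 7 day library (up to 0.213). Rhoc passed as higher at 7 days (1.23, limma adjusted p = 0.000871) and as lower at 28 than at 7 days (-0.78, limma adjusted p = 0.00981, and 0.0851 without 7 day replicate 2). Neutrophil markers summed to 5.56 and 4.85 RPKM in the controls, 14.0 and 27.7 at 7 days, and 40.1 and 130.3 at 28 days. S100a8 and S100a9 were the largest terms of the 28 day sums. Both 7 day sums lay above both control sums. Of the 4 tested, S100a8, S100a9 and Retnlg had met the value criteria themselves and were left out by symbol, so their 28 day values are a description. The other, Lcn2, did not pass at 28 days (0.11, limma adjusted p = 0.88). Elane and Mpo were listed at 0 in every library. Other leukocyte lists had their highest sums at 7 days. Macrophage markers summed to 432 and 436 RPKM in the controls, 741 and 825 at 7 days, and 389 and 296 at 28 days. T and natural killer cell markers summed to 6.71 and 6.68, then 14.3 and 14.9, then 8.62 and 11.9. B and plasma cell markers summed to 23.2 and 26, then 32.3 and 35.4, then 26.3 and 31.5. The part of any of these cells in the values of Fam65b was not tested.

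Cdc14a encodes a dual-specificity phosphatase that removes phosphates set by cyclin-dependent kinases. It measured 0.575 and 0.881 RPKM in the controls, 0.729 and 0.64 at 7 days, and 3.62 and 1.53 at 28 days. Controls and 7 day hearts overlapped, and the 28 day libraries differed by 2.37 times, the widest spread of the 9 genes. Without 28 day replicate 1 Cdc14a no longer met the criteria. The related Cdc14b ranged from 2.22 to 2.76 RPKM and did not pass in any comparison.

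1500009L16Rik is a protein-coding gene listed with the synonym OCC-1. It measured 1.38 and 1.67 RPKM in the controls, 3.69 and 2.85 at 7 days, and 5.92 and 5.82 at 28 days. The 3 groups were in order without overlap. The 7 day mean was 2.14 times the control mean, and the 28 day mean 3.84 times, so that a large part of its difference from control was already present at 7 days.

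Gm12070 is annotated as a processed pseudogene of Gapdh, the glycolytic enzyme glyceraldehyde-3-phosphate dehydrogenase, on chromosome 11. Its GENCODE transcript matched a transcript of Gapdh at all but 1 of 1002 bases. The stretch around that base shows how little separates the copies. Capitals mark the difference, G361A with the base of Gapdh first, counted from the 5′ end of the Gm12070 transcript.
Gapdh: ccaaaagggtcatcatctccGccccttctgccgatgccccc
Gm12070: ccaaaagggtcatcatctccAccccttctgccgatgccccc
Reads can be told apart only where they cover this position, so the level of Gm12070 is uncertain. It measured 10.5 and 11.3 RPKM in the controls, 13.7 and 12.9 at 7 days, and 21.9 and 22.1 at 28 days. Gapdh itself measured 326 and 331 RPKM in the controls, 526 and 444 at 7 days, and 441 and 504 at 28 days. Gapdh passed as higher at 7 days (0.56, limma adjusted p = 0.0259, up to 0.178 without 1 library) and not at 28 days (0.52, limma adjusted p = 0.0611). Gm12070 made up 3.11% and 3.32% of the sum of both in the controls, 2.54% and 2.82% at 7 days, and 4.73% and 4.21% at 28 days. The 28 day shares lay above those of the other 4 libraries.

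**Figure D3:**
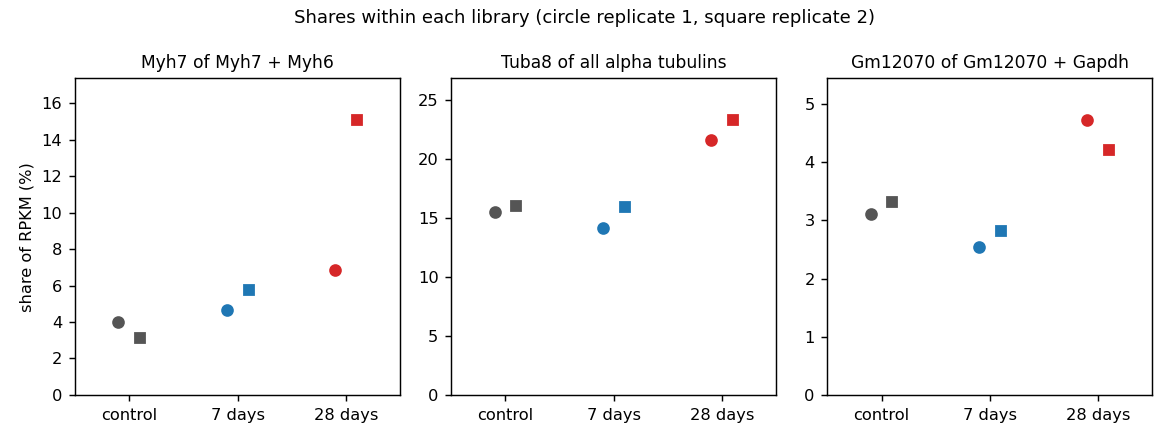
Share of summed RPKM within each library (percent, vertical axes starting at 0) for Myh7 of Myh7 plus Myh6, Tuba8 of all alpha tubulins and Gm12070 of Gm12070 plus Gapdh, in the control, 7 day and 28 day groups. Circles are replicate 1 and squares replicate 2. The 28 day points are the highest in each panel, reaching 15.1% for Myh7, 23.3% for Tuba8 and 4.73% for Gm12070. These genes were chosen by their 28 day values, so the heights are a description.

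Across the 9 genes, the ratio of the higher to the lower 28 day value ranged from 1.01 to 2.37 with a median of 1.13, and replicate 1 was the higher in 5. Levels, compared per length as RPKM, spanned from 2.57 (Cdc14a) to 628 (Myh7) at 28 days, and 6 of the 9 lay under 10 RPKM. Their median at 28 days was 5.87 RPKM, beside 6.21 for all tested genes. Median log2 changes over the 9 were 0.32 at 7 days, 1.39 at 28 days and 1.19 at 28 against 7 days, beside 0.14, 0.01 and -0.12 for all tested genes. The first and second contrasts share their controls.

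**Figure D4:**
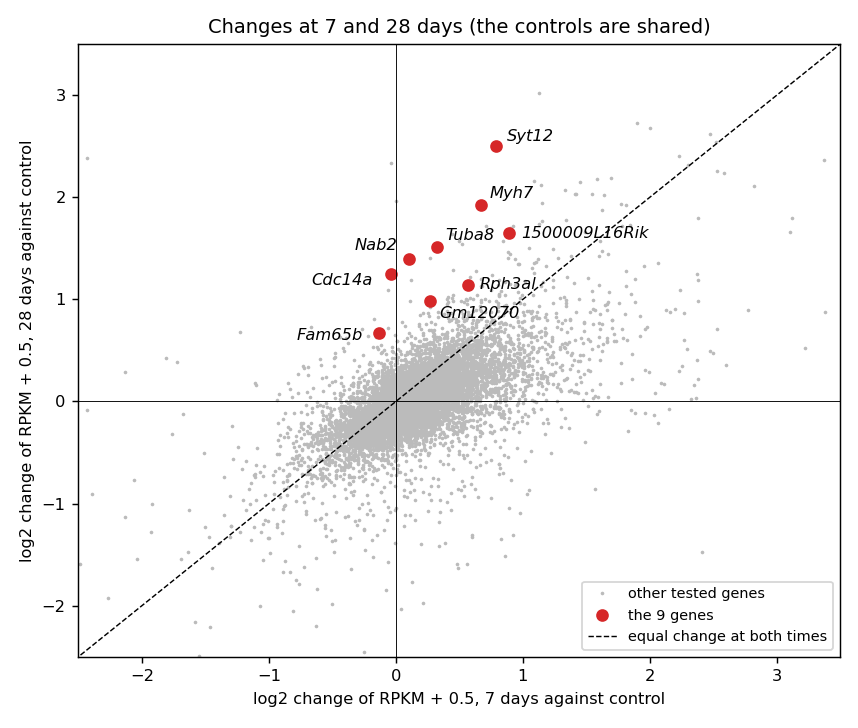
Log2 change of RPKM + 0.5 at 7 days (horizontal) and 28 days (vertical) against the same controls, for the 9 genes in red and the other tested genes in grey. The dashed line marks equal change, and 28 genes lie outside the plotted range. All 9 genes lie above the line, as the choice of genes requires, with Syt12 highest at 2.5.

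Myh7 also belongs to a list of fetal and hypertrophic cardiomyocyte genes, described here by its counts. Of 24 tested genes besides Myh7, 12 passed as higher at 7 days and 14 at 28 days, 0 as lower, with medians of 1.13 and 1.36. Of all tested genes 13.2% and 2.87% were called higher, with medians of 0.14 and 0.01. At 28 against 7 days 1 passed as higher. The count at 7 days was 7 after median ratio scaling (6.57% of all tested genes) and 7 or 8 without a control or 7 day library. The count at 28 days was 4 and 7 without control replicate 1 and 2, 9 and 8 without 7 day replicate 1 and 2, and 4 with no filter. At 28 against 7 days it was 8 without 28 day replicate 2, and 0 without either 7 day library or 28 day replicate 1. The 4 with the smallest adjusted p at 28 days kept their calls without any single library. They were Acta1 (skeletal alpha actin, log2 change 2.24, limma adjusted p = 0.00264), Ankrd1 (a stretch-responsive repeat protein, 1.49, 0.00264), Ankrd23 (2.40, 0.00302) and Nppb (the natriuretic peptide BNP, 3.57, 0.00305). Acta1 measured 870 and 875 RPKM at 7 days and 666 and 719.8 at 28 days, a different order in time from Myh7. Immediate early genes, of which 25 were tested, passed as higher in 6 cases at 7 days (1 without control replicate 1, 2 without 7 day replicate 1, 3 without control replicate 2 or 7 day replicate 2 and with either other scaling, 11 without either 28 day library), in 4 at 28 days (Atf3, Srf, Jund and Klf4; 1 without control replicate 1, 2 without control replicate 2 or either 7 day library, 9 without 28 day replicate 2) and in 0 at 28 against 7 days. The shares of all tested genes are those given for the list above.

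Of 12 ventricular cardiomyocyte markers, all tested and none listed at 0, 3 passed as higher at 28 days, against 2.87% of all tested genes. These were Tnnc1, Actc1 and Mybpc3, and leaving out a control or a 28 day library ended their calls. The sum of the 12 ranged from 54491 to 69816 RPKM over the libraries. Atrial markers summed to 365 and 3130.4 RPKM in the controls, 2076 and 2274 at 7 days, and 2496 and 3489 at 28 days, a sum in which Nppa, which also responds to load, is the largest term. The atrial light chain Myl7 measured 52.5 and 646 RPKM in the controls, 41.2 and 66.2 at 7 days, and 341 and 182 at 28 days, so that control replicate 2 and the 28 day libraries stood above the other 3. Without control replicate 2 the criteria took 16 genes, among them the atrial genes Myl4, Myl7 and Sln. Bmp10 met the fold criterion only because it was listed at 0 in the remaining control and 7 day libraries and in 28 day replicate 2. All 9 of the genes described were kept, which leaving out a control could not change. Of 10 skeletal muscle markers tested, 5 passed as higher at 7 days and 3 at 28 days, against 13.2% and 2.87% of all tested genes. Leaving out either control lowered both counts, and leaving out either 7 day library lowered the first. The shares of all tested genes fell there too. The 3 were Acta1, Mybpc2 and Myot. The others did not pass at 28 days, and Tnni2 and Mylpf lay lower than control at both times (-0.93 and -0.12 at 28 days). Their sum, of which Ckm, Eno3 and Acta1 make up most, was 2374 and 2430.3 RPKM in the controls, 3335 and 2875 at 7 days, and 3187 and 3063 at 28 days. Myog and Chrng were listed at 0. The part of these differences in the values of the 9 genes was not tested. Estimated depth was 12200000 and 12800000 reads in the controls, 14200000 and 13900000 at 7 days, and 12000000 and 10900000 at 28 days. Depth thus followed the groups, with both 28 day libraries lowest and both 7 day libraries highest.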

How the data were processed

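Total RNA of mouse hearts was sequenced on an Illumina HiSeq instrument, per the labels' protocols. The deposited values are RPKM per gene and library, per the file headers, made by the authors from mapped reads. HTSeq, DESeq2, Bowtie 0.12.9 and TopHat2 2.0.12 are named, per the submitters' processing notes, as are the builds mm8 and mm9, with no role for each. What annotation and tool gave the RPKM is not stated in the labels or headers. The reference used for sequences was GRCm38, so genes were matched by symbol and no coordinates were mixed.

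The 9 genes and all lists were chosen with earlier results of these data known, and the families of related genes after the 9 were known. The deposited RPKM were put on the scale log2(RPKM + 0.5), and the 11096 genes whose mean was at least 1 were fitted in limma 3.58.1 (R 4.3.3) on all 6 libraries with group means and a variance trend, with Benjamini-Hochberg adjustment over all tested genes. The steps were tested on simulated data. Named genes were all 9, their families, and up to 4 further members of a list holding one of them, by smallest adjusted p at 28 days against control. Genes just outside the criteria, genes of the marker lists and the atrial genes were named after their values were seen.

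Reads were estimated from 195 single-transcript genes whose low values were whole multiples of 1 step (within 0.3%), with 1 read worth 0.0819 RPKM per kilobase of transcript in control replicate 1, and from the longest GENCODE transcript of each gene. They cover counting error only. Transcripts were compared with blastn 2.17.0. Alternatives were a pseudocount of 0.1, no filter, median ratio scaling, quantile normalization, a replicate block, a fold of 2 in the choice of genes, and each library left out in turn. Python 3.11.15, numpy 2.4.6, pandas 2.3.3 and matplotlib 3.10.9 were used.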

Additional observations from a re-analysis of the deposited data

How the results depend on the processing

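With 2 libraries a group, counts of calls over all genes moved widely. At 7 days against control 1461 genes were higher and 252 lower, with median ratio scaling 729 and 426, with quantile normalization 701 and 527, and without 1 library 341 to 1938 and 52 to 361. At 28 days against control 318 were higher and 171 lower, with no filter 45 and 16, and without 1 library 23 to 308 and 10 to 159. At 28 against 7 days 45 were higher and 473 lower, with no filter 25 and 239, and without 1 library 6 to 101 and 21 to 630. Quantile normalization left 210 lower there and median ratio scaling 225. The criteria took 9 genes, 17 with median ratio scaling (all 9 kept), 14 with quantile normalization (Myh7 lost), 3 with a fold of at least 2 (Syt12, Nab2 and Tuba8), and 11 to 87 without 1 library. Cdc14a was lost without 28 day replicate 1, and all 9 were kept when any other single library was left out. For control and 7 day libraries this was fixed in advance, since their loss cannot raise the highest of those values. Where 1 library was left out, the remaining sample of its group was taken to vary as the others do. No call changed sign, but values near 0 did, 5 times among the 9 genes (Nab2 and Cdc14a at 7 days, Nab2 with either other scaling) and 46 times among other named genes. Of the log2 changes of the 9 genes 25 moved by more than their error and 269 did not. Over all alternatives, calls of other named genes were kept 345 times and lost 106 times, 18 were gained, and 818 values had no call either way. The cause of these shifts was not tested. Replicate deviations correlated at 0.15, -0.02 and -0.01 between groups, so the numbers were not taken as pairs. A replicate block gave 1280 higher and 216 lower at 7 days, 249 and 110 at 28 days, and 31 and 323 at 28 against 7 days.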
